A study of Mus musculus with 4 samples.

Results

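Library c15 is 1 of 3 RNA-seq libraries from tumours of HIF-1alpha knockout AXT osteosarcoma cells, and it was compared with the 2 other knockout libraries, c11 and c22. Its genes were chosen on CPM, a gene's count per 1000000 counts of its library. Of 55487 genes in the deposited table, 11278 had a mean of at least 5 CPM over the 3 knockout libraries, and a gene was set apart in c15 when log2(CPM + 0.5) lay at least 2 from both c11 and c22 in the same direction, a 4-fold difference. By this rule 163 genes were set apart, 59 higher in c15 (0.523% of genes past the filter) and 104 lower (0.922%). These shares are set by the rule and are a description, and the mock library took no part in the choice.

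AXT cells are mouse osteosarcoma cells that arose from stromal cells of the bone marrow of mice lacking Ink4a/Arf, after c-MYC was overexpressed in them. The study asked what loss of HIF-1alpha does to gene expression in such tumours. There was 1 mock library (cell line Mock AXT, genotype WT) and 1 library from each of the lines labelled HIF-1alphaKO AXT1-1, AXT1-2 and AXT2. All cells were embedded in matrigel and injected into C57BL/6scid mice, which lack mature B and T cells, and every tumour was taken after 1 day. The labels do not say which of these lines c11, c15 and c22 are, how Hif1a was edited, or whether each library came from its own animal. The first pair of these lines shares the name AXT1, and whether c15 belongs to it is not known here. Every group is a single library, so no difference below has a replicate error or a p-value, and the 95% intervals are exact intervals for counting error only.

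HIF-1alpha is the oxygen-regulated subunit of a transcription factor that turns on genes of glycolysis, angiogenesis and pH control when oxygen is low. MYC is a transcription factor best known for driving ribosome production and cell growth. Osteosarcoma cells resemble cells of the osteoblast lineage, which express Runx2, Sp7 and Alpl and lay down a matrix rich in fibrillar collagen.

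Library totals were 12383719 counts in mock, against 12910058, 13193264 and 13081007 in c11, c15 and c22, so that a count of 0 in a knockout library allows up to 0.227 to 0.232 CPM. Hif1a (chromosome 12, 73901375 to 73947530, GRCm38, plus strand) measured 107 CPM in mock, against 104, 98.7 and 22.3 in c11, c15 and c22. Its RNA in c11 and c15 was close to that of mock, c22 had less of it, and without the position of the edit the RNA level does not check the knockout. The summed CPM of 22 glycolysis genes was 20422 in mock, against 5368, 9295 and 6440 in c11, c15 and c22, lower than mock in each knockout library. The osteoblast regulators Runx2 (245 CPM in mock, against 133, 139 and 116 in c11, c15 and c22) and Sp7 (177, 65.6, 144 and 76.2 CPM in the same order) were present in every library, while no gene of an epithelial list passed the filter. The host's cells are part of these bulk samples, in which fewer cells of a type and less RNA per cell cannot be told apart.

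By the same rule 66 genes (0.585%) were higher and 23 (0.204%) lower in c11 than in both other knockout libraries, and 27 (0.239%) higher and 74 (0.656%) lower in c22. Library c15 thus had the largest number of genes set apart of the 3, with 163 against 89 in c11 and 101 in c22. It was also the knockout library nearest to mock, with 183 genes at least 4-fold from mock, against 310 in c11 and 336 in c22. Between knockout libraries 324 genes differed by as much for c15 and c11, 381 for c15 and c22 and 244 for c11 and c22. In c15 the median difference to the nearer of the other libraries was 6.42-fold among the higher genes and 6.99-fold among the lower ones. A gap of at least 16-fold from both was seen in 15 of the higher genes and 18 of the lower ones. In 6 of the higher genes c11 and c22 each held at most 3 counts, and in 7 of the lower genes c15 did. The genes nearest to the limit were Kank3 (4.00-fold) and Eif3j2 (4.01-fold) inside and Sumo2 (3.98-fold) and Pdk4 (3.94-fold) outside on the higher side. On the lower side they were Speg (4.02-fold) and Fgfrl1 (4.04-fold) inside and Serpinb9 (3.996-fold) and mt-Te (3.98-fold) outside.

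**Figure D1:**
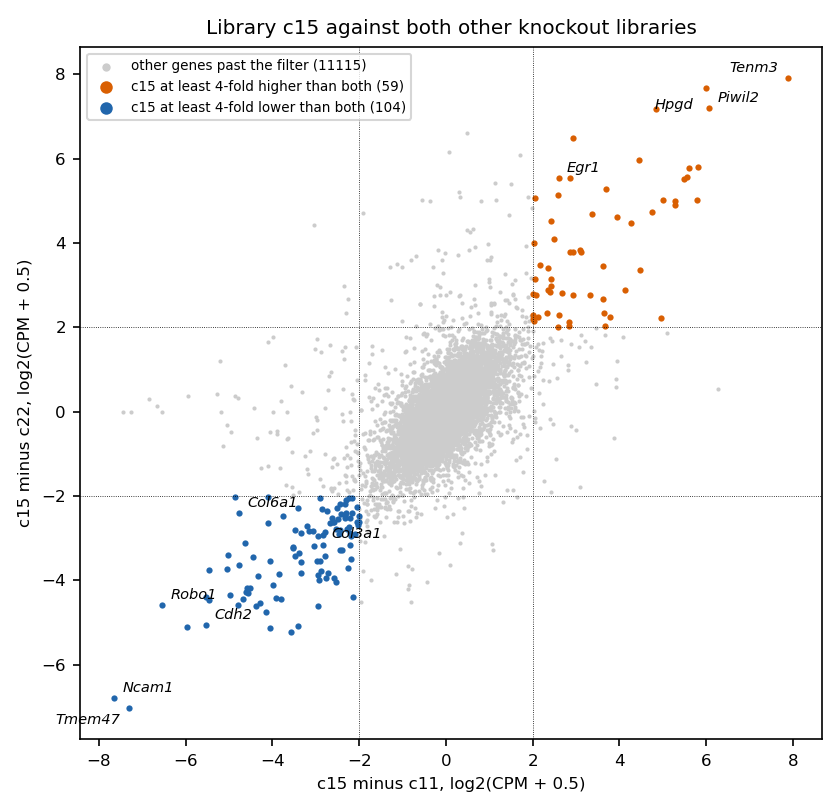
Each point is 1 of 11278 genes past the filter. The x axis is the difference c15 minus c11 and the y axis c15 minus c22, both in log2(CPM + 0.5). Dotted lines mark a difference of 2, which is 4-fold. The 59 higher genes (orange) reach 7.90 for Tenm3 on both axes, and the 104 lower genes (blue) reach -7.65 against c11 for Ncam1 and -7.01 against c22 for Tmem47.

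The higher genes with the widest gaps were close to silent in c11 and c22. Such genes passed the filter only through c15, so their low level in the other libraries follows in part from the choice. Tenm3, a teneurin that joins cells in neural circuits (chromosome 8, 48227682 to 48843951, minus strand), had 135 counts (10.9 CPM) in mock, 1567 (119 CPM) in c15 and none in c11 or c22. It was at least 511-fold higher in c15 than in c11 and at least 518-fold higher than in c22, taking 3 counts per library as the floor. Mock lay between the 2 extremes for this gene. Col4a6, a basement membrane collagen chain, had 1 count in mock, 303 in c15 and none in c11 or c22, which is at least 98.8-fold and at least 100.1-fold higher. Cd6, a lymphocyte receptor, had 31 counts in mock, 363 in c15 and none in c11 or c22 (at least 118-fold and at least 119.97-fold higher). The lymphocyte and NK markers of a fixed list summed to 0.455 CPM in c15 and 1.61 CPM or less in every library, and Cd3e, Cd3d, Cd8a and Ms4a1 were at 0 in all 4.

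Piwil2, a PIWI protein that binds small RNAs in the germline (chromosome 14, 70372477 to 70429383, minus strand), measured 141 CPM in mock, against 3.56, 274 and 1.38 in c11, c15 and c22. Its ratio to c11 was 77.0 (95% interval 57.6 to 105) and to c22 it was 199 (126 to 337), with mock nearer to c15. Amhr2, the receptor of anti-Müllerian hormone, had 274 counts in mock, 413 in c15, 2 in c11 and 1 in c22. With so few counts its ratios of 202 (55.6 to 1674) and 409 (73.1 to 16212) are known only within wide limits. Ivd, an enzyme of leucine breakdown, measured 6.06 CPM in mock, against 0.155, 35.8 and 0.612 in c11, c15 and c22. Clstn3, a synaptic adhesion protein, measured 19.7, 0.465, 37.2 and 0.688 CPM in mock, c11, c15 and c22. Khdrbs3, an RNA-binding splicing regulator, had 30 counts in mock, none in c11, 250 in c15 and 2 in c22. Zfp422, a zinc finger protein, was at 5 counts in both c11 and c22, 38 in mock and 372 in c15. In all of these genes c15 was the highest of the 4 libraries.

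The higher genes included 3 that act in the breakdown, reception and synthesis of prostaglandins. Hpgd, which inactivates prostaglandins (chromosome 8, 56294585 to 56321043, plus strand), measured 134 CPM in mock, against 1.08, 101 and 0 in c11, c15 and c22. Its ratio to c11 was 93.4 (55.5 to 171) and it was at least 442-fold higher than in c22, so c15 and mock stood together far above the other libraries. Ptger3, a receptor of prostaglandin E2, measured 42.2 CPM in mock, against 2.01, 72.2 and 0 in c11, c15 and c22. Ptgs2, the inducible enzyme that starts prostaglandin synthesis, showed another order, at 6.14 CPM in mock, against 4.18, 33.0 and 7.11 in c11, c15 and c22. For Ptgs2 mock lay within the range of c11 and c22, and c15 alone was high. Of 9 genes of a prostaglandin and nitric oxide list past the filter, 8 were above both c11 and c22 by any margin, compared with 36.0% of all genes, and 1 was below both. Their median difference was 1.50 to c11 and 0.58 to c22, beside -0.03 and 0.02 for all genes. Ptgs2, Ptger3 and Hpgd, 3 of the 9 beside 0.523% of all genes set apart upward, were above both by the choice and enter these medians. In every list count below, any gene set apart is likewise above or below both by the choice.

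Immediate early genes, which respond within minutes to growth factors and stress, included 2 of the higher genes. They were 2 of 23 genes of a list past the filter, beside 0.523% of all genes. Egr1 (chromosome 18, 34859823 to 34864984, plus strand) measured 205 CPM in mock, against 22.2, 137 and 2.45 in c11, c15 and c22, a ratio of 6.17 (5.45 to 7.02) to c11 and 55.9 (39.5 to 82.0) to c22. Fos, a subunit of AP-1, measured 48.3, 7.75, 43.5 and 5.05 CPM in mock, c11, c15 and c22. In both genes mock was at or above c15 and well apart from c11 and c22. Of 23 genes of the list, 13 were above both other knockout libraries (36.0% of all genes) and 3 below both (37.6%), and the medians were 0.67 and 0.74. Jun (32.7 CPM in mock, against 62.0, 38.1 and 22.6 in c11, c15 and c22) was not among the 13, and c11 was its highest library.

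A list of WNT pathway genes held 3 higher genes and no lower gene among 20 past the filter, beside 0.523% and 0.922% of all genes. The frizzled receptor Fzd6 had 173 counts in mock, 339 in c15 and 1 in each of c11 and c22, with ratios of 332 (59.1 to 13141) and 336 (59.9 to 13315). Fzd9, another frizzled receptor, measured 9.45 CPM in mock, against 2.87, 17.6 and 1.53 in c11, c15 and c22. Sfrp2, a secreted protein that binds WNT ligands, measured 9.45, 7.59, 81.2 and 11.5 CPM in the same order, so that only c15 was high. The list as a whole had no common direction: 8 of its 20 genes were above both other libraries and 6 below both, beside 36.0% and 37.6% of all genes. Fzd2 (35.6 CPM in mock, against 84.0, 25.5 and 82.9 in c11, c15 and c22) and Fzd7 (51.8, 54.9, 23.4 and 55.8 CPM) were lower in c15.

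Among osteoblast genes, Alpl and Phex were higher. Alpl, the alkaline phosphatase that frees phosphate for mineral (chromosome 4, 137741733 to 137796384, minus strand), measured 35.1 CPM in mock, against 32.2, 165 and 31.9 in c11, c15 and c22. Its ratios were 5.12 (4.61 to 5.70) and 5.16 (4.65 to 5.75), and mock, c11 and c22 were nearly level. Phex, a membrane peptidase that governs phosphate balance, had 164 counts in mock, against 14, 252 and 34 in c11, c15 and c22. Other mineralised matrix genes were not higher in c15 than in both: Ibsp, bone sialoprotein, was at 56.8 CPM in mock, against 48.7, 14.5 and 39.1 in c11, c15 and c22, and Col1a1, the main collagen of bone, at 862, 1913, 1093 and 4700 CPM. Over 16 osteoblast lineage genes, 8 were above both other libraries and 5 below both, compared with 36.0% and 37.6% of all genes.

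Of the remaining higher genes named by level or by gene family, 3 had moderate ratios at high counts. Noc2l, a nucleolar protein, measured 237 CPM in mock, against 150, 604 and 123 in c11, c15 and c22, with ratios of 4.04 (3.84 to 4.24) and 4.91 (4.66 to 5.19). It overlaps the oppositely oriented Samd11 in the annotation. Mical2, an actin-oxidising enzyme, measured 57.2, 24.3, 108 and 22.2 CPM, and Ddah1, which breaks down an inhibitor of nitric oxide synthesis, 51.0, 25.6, 110.3 and 15.7 CPM in mock, c11, c15 and c22. Ddah2, by contrast, was among the lower genes, at 45.4 CPM in mock, against 67.7, 14.25 and 84.2 in c11, c15 and c22. Tmem252, a small membrane protein, had 7 counts in mock, against 10, 252 and 4 in c11, c15 and c22. Its neighbour Pgm5, a phosphoglucomutase-like protein of adhesion sites, was also higher, at 2.67 CPM in mock, against 2.87, 42.9 and 0.612 in c11, c15 and c22. Mical2, Ddah1 and Noc2l differed least from mock among these, and for Tmem252 and Pgm5 mock lay within the range of c11 and c22.

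**Figure D2:**
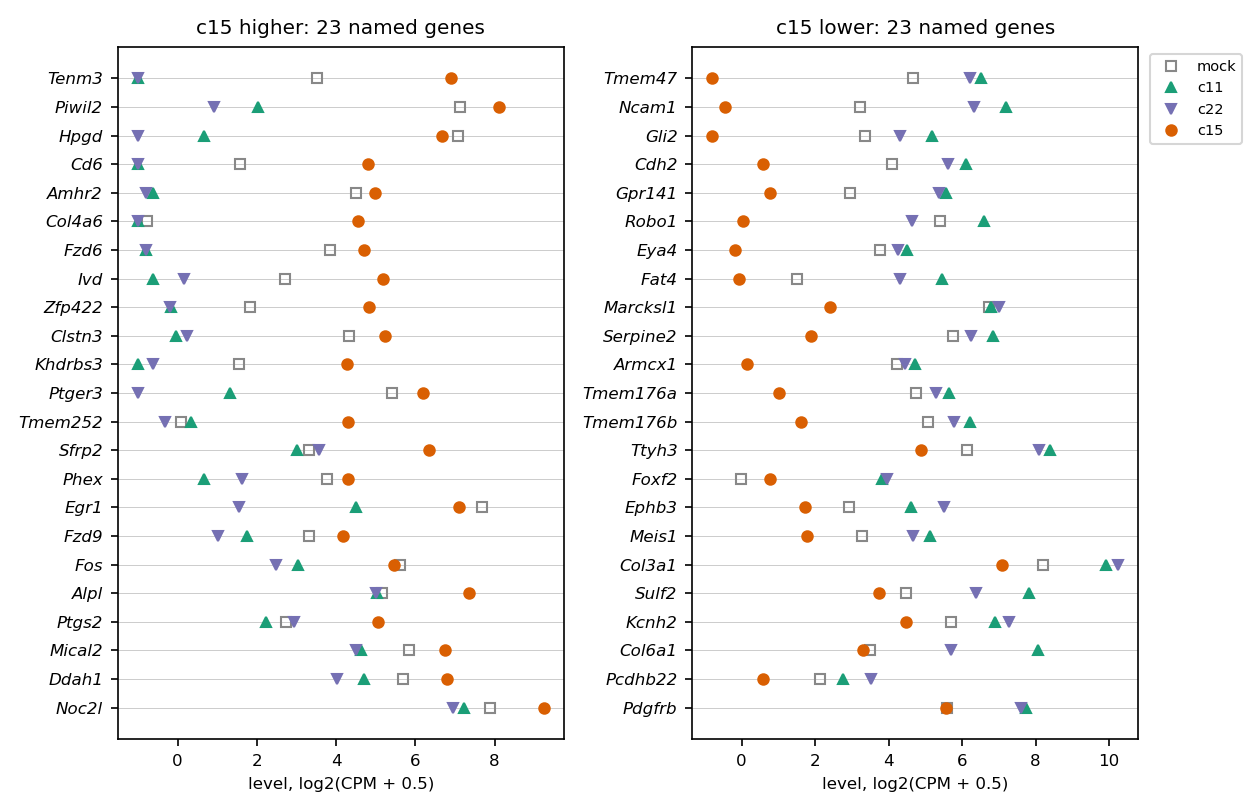
Level of the 46 genes chosen by the naming rule, in log2(CPM + 0.5) on the x axis, with 1 gene per line, ordered by the difference of c15 to the nearer of c11 and c22. Symbols stand for single libraries (square mock, upward triangle c11, downward triangle c22, circle c15), with no error bars because each is 1 library. On the left c15 is the highest knockout library and on the right the lowest, and the mock square falls near c15 for Hpgd, Egr1 and Pdgfrb but near c11 and c22 for Alpl, Ptgs2 and Marcksl1.

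The lower genes with the widest gaps to the nearer library were Tmem47, Ncam1, Gli2 and Cdh2. Tmem47, a membrane protein of cell junctions (chromosome X, 81070698 to 81097872, plus strand), had 308 counts in mock, against 1181, 1 and 967 in c11, c15 and c22, a ratio of 1207 (216 to 47710) of c11 to c15. Ncam1, the neural cell adhesion molecule (chromosome 9, 49502136 to 49798925, minus strand), had 110 counts in mock, against 1880, 3 and 1042 in c11, c15 and c22, with ratios of 640 (219 to 3108) and 350 (120 to 1701). Ratios of the lower genes are given as c11 or c22 over c15. Gm11149, which is antisense to Ncam1 and overlaps it, was lower too, at 1.86 CPM in mock, against 21.7, 0 and 10.5 in c11, c15 and c22. In all of these genes mock was below c11 and c22 and above c15. Cdh2, N-cadherin, measured 16.7 CPM in mock, against 68.3, 0.985 and 48.8 in c11, c15 and c22. Fat4, an atypical cadherin that acts in planar cell polarity, measured 2.34, 43.4, 0.455 and 19.4 CPM, and the protocadherin Pcdhb22, at a smaller gap of 4.56-fold, 3.88, 6.27, 0.985 and 10.9 CPM. Of 8 cadherins and protocadherins past the filter, 5 were below both other libraries and 2 above both, beside 37.6% and 36.0% of all genes. Fat1 (176 CPM in mock, against 163, 191 and 95.3 in c11, c15 and c22) was 1 of the 2. Cdh2, Fat4 and Pcdhb22 are 3 of the 5 and were below both by the choice, so the count is set in part by the rule.

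Receptors of axon guidance cues were among the lower genes as well. Robo1, a receptor of Slit proteins (chromosome 16, 72308306 to 73046095, plus strand), measured 42.0 CPM in mock, against 95.8, 0.531 and 24.2 in c11, c15 and c22, with ratios of 181 (87.4 to 450) and 45.5 (21.8 to 114). Ephb3, a receptor of ephrin-B ligands, measured 7.03, 23.9, 2.80 and 44.6 CPM. Sema5a, a semaphorin, went the other way, at 173 CPM in mock, against 17.1, 105 and 2.52 in c11, c15 and c22. Of 35 ephrin, semaphorin, slit and netrin genes, 17 were below both other libraries and 9 above both, beside 37.6% and 36.0% of all genes.

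Gli2, Eya4, Meis1 and Foxf2, which regulate transcription in development, were lower in c15. Gli2, a mediator of Hedgehog signalling (chromosome 1, 118834132 to 119053619, minus strand), had 121 counts in mock, against 463, 1 and 254 in c11, c15 and c22, and its ratios were 473 (84.5 to 18729) and 256 (45.6 to 10158). Gli1, a direct Hedgehog target, was also lowest in c15, at 5.90 CPM in mock, against 12.5, 2.80 and 18.5 in c11, c15 and c22, but Ptch1, another target, was not (49.3, 64.8, 37.6 and 33.1 CPM). Of 13 Notch and Hedgehog genes past the filter, 7 were below both and none above both, against 37.6% and 36.0% of all genes. Eya4, a transcriptional coactivator and phosphatase, had 162 counts in mock, against 284, 5 and 245 in c11, c15 and c22. Meis1, a cofactor of HOX proteins, measured 9.21 CPM in mock, against 34.5, 2.96 and 24.9 in c11, c15 and c22, and Foxf2, a forkhead factor of mesenchyme, 0.485, 13.6, 1.21 and 15.1 CPM. For Foxf2 mock was even lower than c15. Over 23 limb and skeletal patterning factors, 10 were below both other libraries and 7 above both, near those shares. Of 13 HOX genes, 10 were below both and 1, Hoxc9, above both (37.6% and 36.0% of all genes), with medians of -0.39 and -0.50 and none at 4-fold.

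The lower gene with the most counts was a fibrillar collagen. Col3a1 (chromosome 1, 45311538 to 45349706, plus strand) measured 292 CPM in mock, against 976, 137 and 1216 in c11, c15 and c22, with ratios of 7.15 (6.80 to 7.51) and 8.91 (8.48 to 9.36). Col6a1, a chain of the microfibrillar collagen VI, measured 10.8, 266, 9.32 and 51.5 CPM, and mock and c15 were nearly level. Of 18 collagen chains, 9 were below both other knockout libraries and 2, Col4a6 and Col14a1, were above both (37.6% and 36.0% of all genes), with medians of -1.76 and -1.17. Col1a2, a chain of collagen I, lay between the other libraries in c15 and measured 2292 CPM in mock, against 1082, 1627 and 3398 in c11, c15 and c22. Pdgfrb, the receptor of PDGF-BB and a marker of pericytes and fibroblasts, measured 47.5, 213, 47.2 and 196 CPM. The 8 pericyte markers, 4 of them past the filter, summed to 176 CPM in mock, against 335, 181 and 269 in c11, c15 and c22. This sum includes Pdgfrb, which was chosen as lower in c15, so its low value in c15 follows in part from the choice. Of these markers Rgs5 and Higd1b were at 0 in all 3 knockout libraries, Abcc9 and Kcnj8 were at 0.227 CPM or less there, and Cspg4 was highest in c15 (93.4 CPM in mock, against 100.5, 115 and 52.1 in c11, c15 and c22). The host fibroblast markers were higher in c15, not lower: 7 of 8 past the filter were above both other libraries (36.0% of all genes), and the list summed to 407 CPM in mock, against 111, 311 and 286 in c11, c15 and c22. Pi16 measured 25.7, 4.26, 29.3 and 11.5 CPM and Cd34 27.8, 4.42, 19.2 and 7.34 CPM in that order. The part of host fibroblasts in the higher genes of c15 was not tested.

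The other lower genes named by size or level covered several functions. Marcksl1, an actin-binding protein, measured 106 CPM in mock, against 109, 4.78 and 128 in c11, c15 and c22, so that c15 alone was low. Armcx1, a mitochondrial transport protein, was also low in c15 alone, with 228 counts in mock, against 333, 8 and 278 in c11, c15 and c22. Serpine2, an inhibitor of thrombin and other proteases, measured 53.1, 115, 3.18 and 74.9 CPM, and Gpr141, an orphan G protein-coupled receptor, 7.19, 47.0, 1.21 and 40.6 CPM. Ttyh3, a chloride channel family member, measured 69.7 CPM in mock, against 335, 28.7 and 272 in c11, c15 and c22. Kcnh2, a potassium channel, measured 51.7, 119, 21.6 and 155 CPM. Sulf2, which removes sulfate from heparan sulfate, measured 21.9, 228, 12.7 and 82.0 CPM and overlaps Ncoa3 on the opposite strand. The ratios of these 7 genes to the nearer library ran from 5.51 for Kcnh2 to 35.0 for Armcx1.

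Tmem176a and Tmem176b, membrane proteins best known in dendritic cells and macrophages, were the only adjacent pair among the lower genes named by the rule. Tmem176a measured 26.2 CPM in mock, against 49.1, 1.52 and 38.7 in c11, c15 and c22, and Tmem176b 33.0, 73.2, 2.58 and 55.0 CPM. They lie head to head on chromosome 6 and overlap in the deposited coordinates, and whether the counting used strand is not given in the sources used here, so their counts may not be independent. The RefSeq promoter windows, from 250 bases before to 50 after each start in GRCm38.p6, are shown because they share 208 bases, printed in capitals. The window of Tmem176a is chr6:48841233-48841532 on the plus strand and that of Tmem176b chr6:48841325-48841624 on the minus strand.
Tmem176a: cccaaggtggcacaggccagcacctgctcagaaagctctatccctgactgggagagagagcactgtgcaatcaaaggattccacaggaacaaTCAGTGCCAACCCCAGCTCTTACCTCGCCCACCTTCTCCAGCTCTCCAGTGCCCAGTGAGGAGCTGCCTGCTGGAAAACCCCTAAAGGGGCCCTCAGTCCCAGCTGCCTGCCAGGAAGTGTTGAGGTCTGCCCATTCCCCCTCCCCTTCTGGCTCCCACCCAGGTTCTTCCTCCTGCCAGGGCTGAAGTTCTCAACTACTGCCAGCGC
Tmem176b: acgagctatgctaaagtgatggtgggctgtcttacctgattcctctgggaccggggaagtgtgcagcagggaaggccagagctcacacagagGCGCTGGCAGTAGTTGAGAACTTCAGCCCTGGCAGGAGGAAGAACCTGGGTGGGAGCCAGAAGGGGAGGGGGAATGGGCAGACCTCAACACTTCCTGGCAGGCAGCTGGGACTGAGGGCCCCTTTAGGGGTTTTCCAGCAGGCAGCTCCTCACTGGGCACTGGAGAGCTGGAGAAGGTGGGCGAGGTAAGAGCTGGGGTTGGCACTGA
The shared stretch is the same DNA read on opposite strands. The RefSeq starts lie 564 and 122 bases inside the deposited starts of Tmem176a and Tmem176b. Macrophage markers, with 14 of 14 past the filter, summed to 895 CPM in mock, against 292, 397 and 504 in c11, c15 and c22, and dendritic cell markers to 121, 77.5, 81.1 and 153 CPM. Both sums in c15 lay between those of c11 and c22, while Tmem176a and Tmem176b were lower in c15 than in either. The part of host macrophages and dendritic cells in this pair was not tested.

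Some genes known from striated muscle were set apart in c15, on both sides, and those in this paragraph were picked after their values were seen. Perm1, a regulator of mitochondrial genes in muscle, was higher, at 2.26 CPM in mock, against 0.697, 14.2 and 0.841 in c11, c15 and c22. The others were lower. Des, the intermediate filament of muscle, measured 9.29 CPM in mock, against 7.28, 0.531 and 15.8 in c11, c15 and c22. Its neighbour Speg measured 29.3, 72.8, 17.7 and 111 CPM. Flnc, an actin cross-linker of the Z-disc, measured 22.5 CPM in mock, against 121, 4.85 and 95.9 in c11, c15 and c22, Trim54, a ubiquitin ligase of the sarcomere, 5.49, 24.4, 1.59 and 78.0 CPM, and Hrc, a calcium-binding protein of the sarcoplasmic reticulum, 8.96, 8.68, 0.834 and 13.7 CPM. Des was the only gene set apart of 18 actin cytoskeleton and contractile genes past the filter, of which 8 were above both other knockout libraries and 6 below both (36.0% and 37.6% of all genes). A fixed list of 16 skeletal muscle markers summed to 159 CPM in mock, against 9.84, 4.17 and 34.7 in c11, c15 and c22, with none past the filter and Myh4, Ckm, Tnnt3, Myh1, Myh2 and Myh7 at 0 in c15. The marker sum was thus lowest in c15 as well, but in c11 it was far below mock, while Flnc and Trim54 were higher in c11 than in mock. The part of muscle RNA in these genes was not tested.

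Further genes were picked after their values were seen, to show how the 4 libraries could be ordered. Metabolic genes among the higher ones were Gls2, a glutaminase (51.0, 7.20, 58.0 and 3.75 CPM in mock, c11, c15 and c22), Slc36a2, an amino acid transporter (48.3, 0.775, 24.0 and 0.612 CPM), and Cbs, which makes cystathionine (3.72, 0.387, 19.4 and 1.45 CPM). Mock was close to c15 for Gls2, above it for Slc36a2 and far below it for Cbs. Among the lower ones, Sox9, a regulator of cartilage, measured 9.45 CPM in mock, against 67.7, 3.49 and 15.7 in c11, c15 and c22. Tfpi, an inhibitor of the tissue factor pathway of coagulation, measured 51.2, 109, 2.80 and 43.2 CPM, and Mgp, matrix Gla protein, an inhibitor of calcification, 3.47, 7.59, 0.531 and 11.5 CPM. In 4 lower genes mock was the highest library of all, namely Kbtbd11 (92.1, 16.1, 0.606 and 23.01 CPM), Klhl13 (43.4, 20.8, 0.834 and 22.3 CPM), Peg12 (25.7, 18.7, 0.455 and 13.6 CPM) and Mdfi (16.7, 9.68, 1.67 and 13.9 CPM). In 9 higher genes mock was at or above c15 and in 7 lower genes at or below it, and in 5 higher and 7 lower genes mock lay within the range of c11 and c22.

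Mock, which was not used in the choice, was set beside these genes. It was nearer to c15 than to the mean of c11 and c22 in 33 of the 59 higher genes (55.9%) and in 59 of the 104 lower genes (56.7%), against 54.8% of all genes past the filter. The same measure for the other lines gave 24 of the 66 higher genes of c11 (36.4%) and 2 of its 23 lower genes (8.70%), against 36.6% of all genes. For c22 it gave 6 of 27 higher genes (22.2%) and 6 of 74 lower genes (8.11%), against 35.7% of all genes. The shares of c15 were thus near that of all genes in both directions, as was that of the higher genes of c11, while the other 3 shares were below it. In c15 itself, 26 of the higher and 38 of the lower genes were within 2-fold of mock, compared with 93.1% of all genes. In 19 of the higher genes c15 was at least 4-fold above mock (0.559% of all genes), and in 40 of the lower genes at least 4-fold below it (1.06%). In 27 of the higher genes it was c11 and c22 that both lay at least 4-fold below mock (0.559% of all genes), and in 30 of the lower genes both lay at least 4-fold above it (0.674%). The median difference to mock was 1.23 in c15, -2.01 in c11 and -2.16 in c22 for the higher genes, and -1.54, 1.82 and 1.73 for the lower ones. These comparisons share the knockout libraries with the rule and describe where mock lies.

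Genes set apart in c15 were spread over 19 chromosomes in each direction, but some chromosomes held an excess of small differences in 1 direction. Chromosome 16 had the lowest medians, at -0.48 to c11 and -0.69 to c22, and 70.6% of its 378 genes past the filter were below both other libraries, compared with 37.6% of all genes. It carried 8 lower genes, among them Robo1, Ephb3, Masp1 and Ccdc80, and no higher gene. Chromosome 5 stood at -0.41 and -0.32 and chromosome 1 at -0.17 and -0.37. Chromosome 11 was highest, at 0.28 and 0.29, with 59.2% of 917 genes above both. No chromosome median came near 4-fold. The difference to mock was of the same sign on these 4 chromosomes, at -0.38 on chromosome 16, -0.12 on 5, -0.25 on 1 and 0.28 on 11. The medians of c11 and c22 to mock were 0.13 and 0.29 on chromosome 16 and 0.29 and 0.21 on 5. They were -0.04 and 0.125 on chromosome 1 and 0.0003 and -0.02 on 11. On chromosome 5 both c11 and c22 thus lay farther from mock than c15 did.

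**Figure D3:**
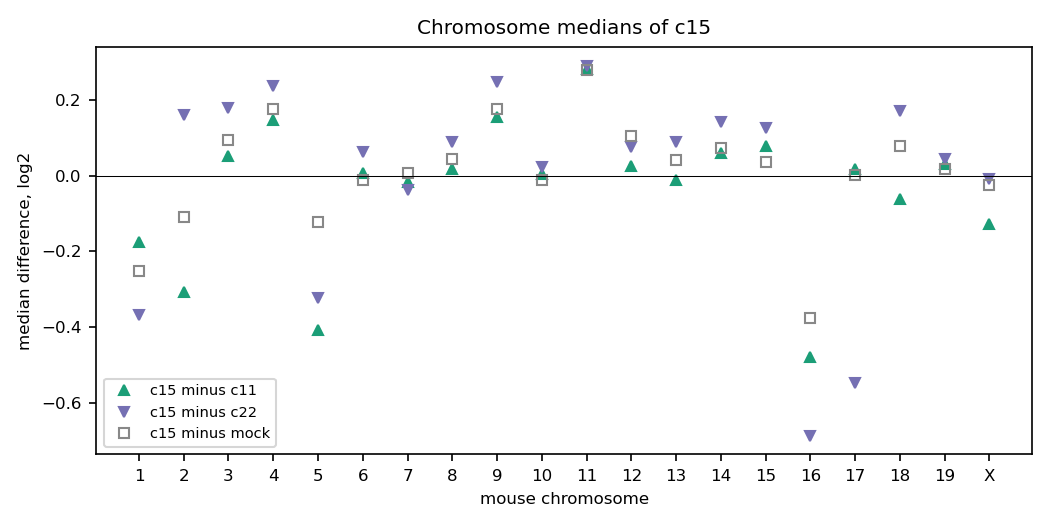
Median difference of c15 (log2, y axis) to c11, c22 and mock over the genes past the filter on each mouse chromosome (x axis). Chromosome 16 lies at -0.48, -0.69 and -0.38 and chromosome 11 at 0.28, 0.29 and 0.28, and on chromosome 17 only the difference to c22 departs from 0 (-0.55).

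Running medians of 25 neighbouring genes placed these differences in segments. On chromosome 4 the last 149 genes past the filter, from Luzp1 to Samd11 (136469761 to 156255657), had a median of 1.04 to c11, 0.99 to c22 and 0.97 to mock, close to 2-fold. In that segment 131 genes (87.9%) were above both other knockout libraries, and the 25 genes before it were at -0.02 in both comparisons. The medians of c11 and c22 against mock in the segment were -0.12 and -0.06, so that c15 was the library that stood apart. All 8 higher genes of chromosome 4 lay in it, beside 149 of its 684 genes past the filter: Rap1gap, Alpl, Gpr153, C1qtnf12, AW011738, Perm1, Plekhn1 and Noc2l. Their differences exceeded the segment's median, since each was at least 4-fold from both. The macrophage genes C1qa, C1qb and C1qc also lie in the segment, with C1qa at 24.1 CPM in mock, against 8.29, 15.5 and 20.9 in c11, c15 and c22, C1qb at 34.0, 12.1, 19.6 and 32.4 CPM and C1qc at 23.1, 6.20, 11.9 and 15.4 CPM. In these 3 genes c15 lay between c11 and c22.

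On chromosome 11 a segment of 286 genes from Neurl4 to Stard3 (69901072 to 98381112) had medians of 0.60 to c11, 0.65 to c22 and 0.62 to mock, and 81 genes from Gm12359 to Acbd4 followed at 0.66, 0.50 and 0.54. These segments, with 286 and 81 of the 917 genes of the chromosome past the filter, held 2 of its 4 higher genes, Abhd15 and Mpp3. On chromosome 16 the lower segments covered 65 genes from Mgrn1 to Sdf2l1 and 245 genes from Snap29 onward (17405986 to 90928110). The longer one had medians of -0.56 to c11, -0.76 to c22 and -0.43 to mock, whereas the 25 genes after it were at 0.23 and 0.32. It held all 8 lower genes of the chromosome, but also 245 of its 378 genes past the filter. Here c11 (0.18) and c22 (0.32) were themselves above mock. In all, 18 segments were made of 25-gene windows whose medians passed a limit of 0.5 in both comparisons, 4 on chromosome 1, 7 on chromosome 5, 2 each on 11 and 16, and 1 each on 3, 4 and 19. Over the whole segment the median was inside 0.5 in 1 of the comparisons for 5 of them. Without their genes, 48 higher and 82 lower genes were left. This took out every gene of the segments, also those set apart against a segment's direction, such as Fat4 and Gm28901. It also took out many genes that were not set apart, so the drop does not measure the part of the segments. DNA was not measured in this series.

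**Figure D4:**
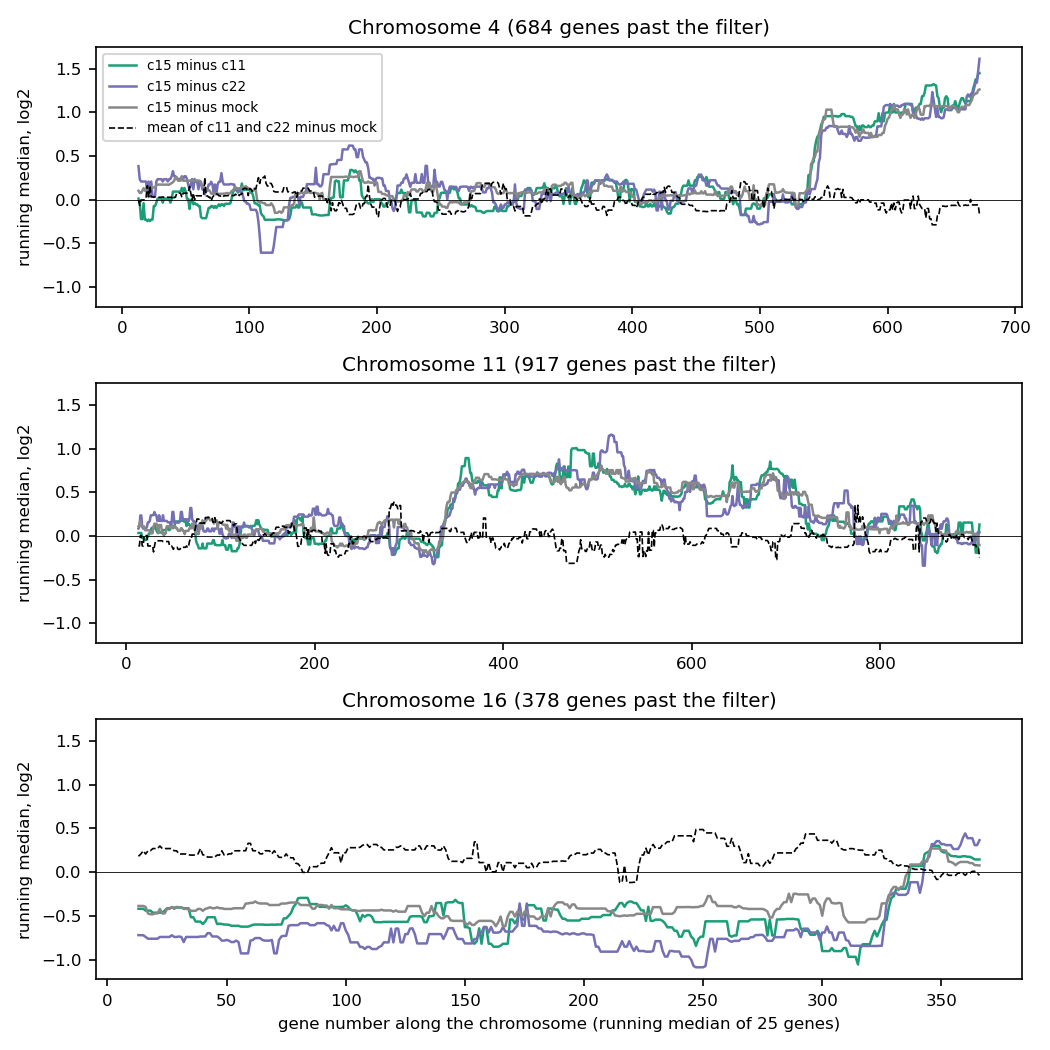
Running median of 25 genes (log2 difference, y axis) against the order of genes past the filter along chromosomes 4, 11 and 16 (x axis). Solid lines are c15 minus c11, minus c22 and minus mock, and the dashed line is the mean of c11 and c22 minus mock. On chromosome 4 the 3 solid lines step up together to about 1.04, 0.99 and 0.97 over the last 149 genes while the dashed line stays near 0.

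Neighbouring genes were set apart together in a few places. Of the higher genes 10 lay next to another higher gene, in 6 adjacent pairs: AW011738, Perm1, Plekhn1 and Noc2l in a row, Rap1gap with Alpl, Tmem252 with Pgm5, and Lama3 with Ankrd29. On the lower side 8 genes formed 4 pairs, Des with Speg, Trim54 with Gm15469, Tmem176a with Tmem176b, and Ncam1 with the antisense Gm11149. In c11 there were 5 pairs on the higher side and 1 on the lower, and in c22 none and 4. In all, 21 of the 163 genes overlap another gene past the filter, and reads of such partners may have been shared. By symbol letters, the only family with at least 3 genes set apart in 1 direction was Tmem, a name for unrelated membrane proteins. It held 3 lower genes and 1 higher gene among 131, beside 0.922% and 0.523% of all genes.

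Below 4-fold, the list with the most uniform direction, among lists with at least 10 genes past the filter, was that of MYC targets and ribosome biogenesis. All 21 of its genes past the filter were higher in c15 than in both c11 and c22, compared with 36.0% of all genes, and none was at least 4-fold from both. The medians were 0.74 to c11 and 0.97 to c22, and 0.10 to mock. Ncl, nucleolin, measured 2511 CPM in mock, against 2163, 2571 and 1729 in c11, c15 and c22. Odc1, the first enzyme of polyamine synthesis and a MYC target, measured 563, 511, 857 and 275 CPM, and Polr1b, a subunit of RNA polymerase I, 144, 65.4, 124 and 37.7 CPM. Of these genes 3, Srm, Cad and Mybbp1a, lay in the segments above. Srm, spermidine synthase, measured 212 CPM in mock, against 121, 487 and 129 in c11, c15 and c22. Without these 3, all 18 others were still above both libraries, with medians of 0.74 and 0.94. Myc itself measured 3.47 CPM in mock, against 14.95, 24.1 and 3.75 in c11, c15 and c22, highest in c15 and nearly level in mock and c22. The list summed to 13735 CPM in mock, against 7956, 12699 and 7280 in c11, c15 and c22. The part of Myc in the level of the list was not tested. The Myc values are counts of the mouse gene, and whether the c-MYC overexpressed in AXT cells is counted there is not known here.

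**Figure D5:**
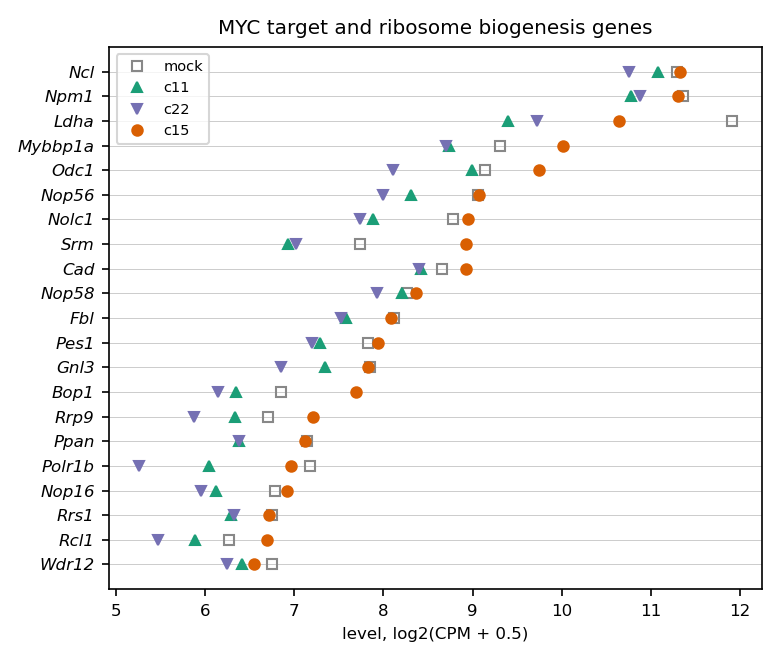
Level of the 21 MYC target and ribosome biogenesis genes past the filter (log2(CPM + 0.5), x axis), 1 gene per line and 1 symbol per library. The c15 circle lies to the right of both c11 and c22 in all 21 genes, and the mock square is close to it in most.

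In 5 other growth and metabolic lists both medians were smaller in size, and their counts are to be read against 36.0% of all genes above both other knockout libraries and 37.6% below both. Of 22 glycolysis genes, 12 were above both other knockout libraries and 2 below both, with medians of 0.33 and 0.40, while c15 remained below mock at a median of -1.10. Eno1, which lies in the segment of chromosome 4, measured 2229 CPM in mock, against 642, 2023 and 825 in c11, c15 and c22, so that its level in c15 was close to mock. Pgk1 was at 2207, 482, 681 and 505 CPM and Aldoa at 2111, 587, 692 and 602 CPM, both far below mock in every knockout library. Without the 3 genes in segments the medians were 0.24 and 0.38. Hypoxia response genes outside glycolysis were split, 10 of 23 above both and 10 below both, with a median of -1.45 to mock. Vegfa was lowest in c15 (113 CPM in mock, against 106, 66.5 and 142 in c11, c15 and c22) and Car12, a carbonic anhydrase, highest (70.9, 40.7, 113 and 3.98 CPM). Of 30 cell cycle genes, 17 were above both and 3 below both, with medians of 0.21 and 0.19. Of 21 amino acid transporters, 13 were above both and 1 below both. Of 12 mitochondrial genome transcripts, 10 were below both and none above both, at medians of -0.19 and -0.50. Genes of the mitochondrial genome took 1.86% of counts in c15, the lowest share of the 4 libraries, of which c22 had the highest at 2.62%.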

How the data were processed

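The deposited table holds raw counts per Ensembl gene, 1 column for each of the 4 poly(A) libraries, from a directional library kit (labels' protocols). The submitters' processing notes name FastQC (0.11.7) for read quality, Trimmomatic (0.38), the aligner HISAT2 (2.1.0), SAMtools (1.9) and featureCounts (1.6.3), with GRCm38 as the build. Settings of these tools, strand included, are not given in the sources used here. From the counts, CPM were computed on column totals with Python 3.11.15, pandas 2.3.3 and numpy 2.4.6, and 0.5 was added before taking log2. Ratios carry exact 95% intervals for counting error. TMM (edgeR 4.0.16) and DESeq2 1.42.0 size factors were alternatives in R 4.3.3. The counting of genes was checked on simulated data. Named genes were Hif1a and, in each direction, the 12 largest differences, the 6 highest means, up to 3 genes of each list with at least 2 genes set apart, families by symbol, and the 2 genes on either side of the limit, without predicted genes. Other genes were named after their values were seen. Members and lists were chosen with earlier results of these data known. Of 58 lists, that of replication-dependent histones matched no symbol. Promoter sequences matched 67.8% of the higher and 72.1% of the lower genes, under 80%, so a check of promoter features is void.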

Additional observations from a re-analysis of the deposited data

How the results depend on the processing

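The 59 higher and 104 lower genes became 60 and 101 with TMM or DESeq2 factors (58 and 101 of them shared under each), 52 and 90 with a pseudocount of 1, and 63 and 121 with 0.1. Requiring the whole counting interval past 4-fold left 43 and 79. There were 127 higher and 142 lower genes at a mean of at least 1 CPM, 135 and 142 with no filter, and 32 and 79 at 10 CPM. The excess of lower over higher genes was thus smaller with a weaker filter. A 3-fold limit gave 108 and 172, and an 8-fold limit 22 and 39. Leaving out c11 or c22 leaves 1 comparison, and the counts then ranged from 111 to 178 higher and from 203 to 213 lower. Leaving out c15 gives no value. None of the 46 named genes changed direction in 276 recomputed values. Each had been chosen at least 4-fold from both libraries, so this outcome was all but fixed and is no check. List medians near 0 changed sign: without the genes of the segments (added after seeing the data) the osteoblast median to c22 was 0.022, the hypoxia median to c22 -0.056 and the limb patterning median to c22 -0.037, and the WNT median to c11 was 0.0085 with TMM and 0.0058 with DESeq2 factors. No paired analysis was possible because each line has 1 library and the columns carry no replicate number.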
